A study of Mus musculus with 45 samples.

Results

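Slc10a2, Fabp6, Fgf15, Slc51a, Slc51b, Nr1h4, Nr0b2, Cubn and Amn, genes of bile acid and cobalamin absorption in the ileum, were examined across all 9 genotypes of the series. They were picked by symbol, as 9 of 19494 named genes on the array, and each was read by 1 probe. RNA from frozen pieces of whole ileum was measured in 45 mice of 11 weeks, 1 array per mouse and 5 mice per genotype, and all values are deposited log2 intensities. Neither the sex of the mice nor the Cre driver was given. The labels do not say whether mice of a group were littermates.

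Both control groups carried floxed alleles without deletion, Fadd fl/fl or Casp8 fl/fl. FADD IEC-KO and CASP8 IEC-KO mice lacked FADD, an adaptor of death receptors, or caspase-8, the protease that it recruits, in intestinal epithelial cells. FADD IEC-KO Mlkl -/- and CASP8 IEC-KO Mlkl -/- mice also lacked MLKL, the executioner of necroptosis, in the whole body. FADD IEC-KO Zbp1 -/- mice also lacked the nucleic acid sensor ZBP1 in the whole body, and FADD IEC-KO RIPK3 IEC-KO mice also lacked the necroptosis kinase RIPK3 in the epithelium. FADD IEC-KO CASP8 IEC-KO Mlkl -/- mice, called triple mutants here, carried both epithelial deletions and the MLKL deletion. Mlkl -/- and Zbp1 -/- occurred in the series only together with an epithelial deletion.

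Bile acids are taken up from the ileal lumen by the apical sodium-dependent transporter that Slc10a2 encodes, bound in the cytosol by the ileal lipid-binding protein FABP6, and exported to the portal blood by the dimer of SLC51A and SLC51B. Inside the enterocyte they activate the nuclear receptor FXR, encoded by Nr1h4, which induces Fabp6, Slc51a, Slc51b, the corepressor gene Nr0b2 and Fgf15. FGF15 is a hormone that travels to the liver and lowers bile acid synthesis there. Cobalamin, vitamin B12, is absorbed in the same segment when cubilin binds its complex with intrinsic factor, and amnionless, encoded by Amn, anchors cubilin in the brush border membrane.

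In build GRCm38.p6 the RefSeq annotation places the uptake and binding genes Slc10a2 at chr8:5083219-5105287 and Fabp6 at chr11:43596040-43601562. The exporter genes lie at chr16:32475578-32487879 (Slc51a) and chr9:65412753-65422773 (Slc51b). Nr1h4 lies at chr10:89454234-89533645, Nr0b2 at chr4:133553376-133556686 and Fgf15 at chr7:144896532-144900953. Cubn lies at chr2:13276338-13491876 and Amn at chr12:111271096-111276426.

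Promoter windows of 250 bases before the RefSeq transcript start were on file for 8 of the 9 genes, all but Fgf15, in build GRCm38.p6. Windows of 5 genes are printed because their expression bears on the results. Fabp6 is shown for the FXR motif and Nr0b2 because it differed after caspase-8 loss. Slc51a, Amn and Slc10a2 are shown because Slc51a varied together with each of the other 2 between mice. Cubn varied with all 3, and its window, which held none of the motifs searched, is not printed. Capitals mark matches, on either strand, to 3 motifs. These are the inverted repeat AGGTNANTNACCT of the kind that FXR binds as a dimer with RXR, the E-box CACGTG that clock and other helix-loop-helix factors bind, and the HNF1 motif GTTAAT. A single nuclear receptor site AGGTCA and the TATA box TATAAA were also searched and are left in lower case.

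The Fabp6 window lay at chr11:43601563-43601812 on the minus strand.
Fabp6: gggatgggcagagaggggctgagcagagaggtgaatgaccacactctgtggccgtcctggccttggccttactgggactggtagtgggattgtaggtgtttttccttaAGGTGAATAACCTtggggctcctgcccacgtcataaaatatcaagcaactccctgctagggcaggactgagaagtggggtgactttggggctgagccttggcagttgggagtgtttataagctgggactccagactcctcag
The Slc51a window lay at chr16:32487880-32488129 on the minus strand.
Slc51a: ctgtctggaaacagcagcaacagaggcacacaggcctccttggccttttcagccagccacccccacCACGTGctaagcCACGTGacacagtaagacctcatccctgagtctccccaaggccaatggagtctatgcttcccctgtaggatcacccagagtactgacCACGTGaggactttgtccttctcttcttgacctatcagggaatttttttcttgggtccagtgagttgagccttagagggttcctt
The Amn window lay at chr12:111270846-111271095 on the plus strand.
Amn: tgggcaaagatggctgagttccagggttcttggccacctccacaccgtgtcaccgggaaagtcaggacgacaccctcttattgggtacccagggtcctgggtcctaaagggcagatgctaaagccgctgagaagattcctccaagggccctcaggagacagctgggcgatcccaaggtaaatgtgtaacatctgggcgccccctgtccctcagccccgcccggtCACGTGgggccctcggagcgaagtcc
The Nr0b2 window lay at chr4:133553126-133553375 on the plus strand.
Nr0b2: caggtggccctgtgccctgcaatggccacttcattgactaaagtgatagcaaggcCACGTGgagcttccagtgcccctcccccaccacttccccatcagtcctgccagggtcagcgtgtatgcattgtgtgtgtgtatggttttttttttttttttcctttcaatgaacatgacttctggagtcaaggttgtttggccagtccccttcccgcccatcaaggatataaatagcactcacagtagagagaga
The Slc10a2 window lay at chr8:5105288-5105537 on the minus strand.
Slc10a2: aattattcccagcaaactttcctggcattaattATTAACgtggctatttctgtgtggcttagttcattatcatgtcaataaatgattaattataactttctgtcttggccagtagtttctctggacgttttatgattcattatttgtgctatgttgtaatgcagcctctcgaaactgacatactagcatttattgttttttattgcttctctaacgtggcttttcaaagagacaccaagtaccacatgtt

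Fabp6 held the inverted repeat, as AGGTGAATAACCT, at bases -142 to -130 relative to its start. Only 6 of 32851 windows of the same length matched it (0.0183%), and no other of the 8 genes did. Slc51a held CACGTG at 3 places, beginning at bases -184, -172 and -85. Amn held it once, from base -26, and Nr0b2 once, from base -195. The E-box was found in 6.02% of all windows. Slc10a2 held GTTAAT on the opposite strand, from base -217, Nr1h4 held it on its own strand from base -40, and 6.43% of windows held this motif. The Nr1h4 window belongs to a transcript that starts inside the gene. A single nuclear receptor site, AGGTCA or its reverse complement, was found in Slc51a, Slc51b and Nr1h4 and in 14% of windows. Nr0b2 held TATAAA from base -28 and Fabp6 held it on the opposite strand from base -29, as did 12.4% of windows on either strand. The Cubn window held none of these. A match describes letters and was not tested for binding.

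The labels were checked first. Fadd intensity was between 6.05 ± 0.44 and 6.45 ± 0.52 (SD, n = 5) in the 5 groups titled FADD IEC-KO, and the 4 remaining groups had 7.43 ± 0.12 to 7.53 ± 0.06. FADD IEC-KO replicate 1 had 7.32, near the levels without deletion, so results that rest on this group are also given without it where a call changed. Casp8 was between 9.55 ± 0.09 and 10.23 ± 0.51 in the groups titled CASP8 IEC-KO and between 11.14 ± 0.19 and 11.40 ± 0.10 elsewhere. Ripk3 was lowest in the mice titled RIPK3 IEC-KO, at 7.50 ± 0.17, and Zbp1 in FADD IEC-KO Zbp1 -/- (6.04 ± 0.31). The Mlkl probe gave 7.14 ± 0.19 for triple mutants, 8.05 ± 0.22 for FADD IEC-KO Mlkl -/- mice and 8.43 ± 0.22 for CASP8 IEC-KO Mlkl -/- mice, against 8.62 ± 0.21 in Casp8 fl/fl. Which part of each gene its probe reads was not given. Fabp6 and Slc10a2, which mark the ileum among intestinal segments, stayed within 11.89 to 12.95 and 11.22 to 11.94 in all 45 mice. Of colon markers, Hoxb13 had group means of 3.89 to 4.34, whereas Car1, a carbonic anhydrase, reached 9.42 ± 1.94 in CASP8 IEC-KO mice, 9.23 ± 2.39 in FADD IEC-KO mice and 9.12 ± 1.28 in FADD IEC-KO Zbp1 -/- mice, against 5.38 ± 0.53 in Fadd fl/fl and 5.34 ± 0.39 in Casp8 fl/fl. Car1 was the only 1 of 6 measured colon markers that rose by limma's test after FADD loss and after caspase-8 loss. None fell, and the median log2 differences of the list were 0.08 and -0.11. The means of the pancreas and liver marker lists had group means of 5.49 to 5.64 and 4.80 to 5.16.

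Group means of the bile acid and cobalamin genes lay within 2-fold of each other, except those of Fgf15. Their median span was nonetheless wider than that of all genes. All of the genes but Fgf15 had group means that spanned 0.30 to 0.76 on the log2 scale, and Fgf15 spanned 1.35, a 2.56-fold range. The median span was 0.52, against 0.35 over all genes. Slc51a, Amn, Nr0b2 and Fgf15 passed limma's F test of any difference among the 9 groups, with adjusted p of 0.0198, 0.0302, 0.0416 and 0.0455. That is 4 of 9 genes, against 25.4% of all genes tested. Slc10a2 (adjusted p = 0.0537), Slc51b (0.0875), Nr1h4 (0.0899), Cubn (0.103) and Fabp6 (0.274) did not pass. In the order of each gene's group means no 2 neighbouring genotypes differed by limma's test over all genes (lowest adjusted p 0.602). Neighbours in such an order are close by construction, so this says nothing of genotypes farther apart. Of the 36 pairs of genotypes, Amn passed in 3, Slc10a2 and Slc51a in 2 each, Nr0b2 in 1 and the other genes in 0. Values rest on whole tissue, where fewer cells of a type and less RNA per cell cannot be told apart.

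**Figure D1:**
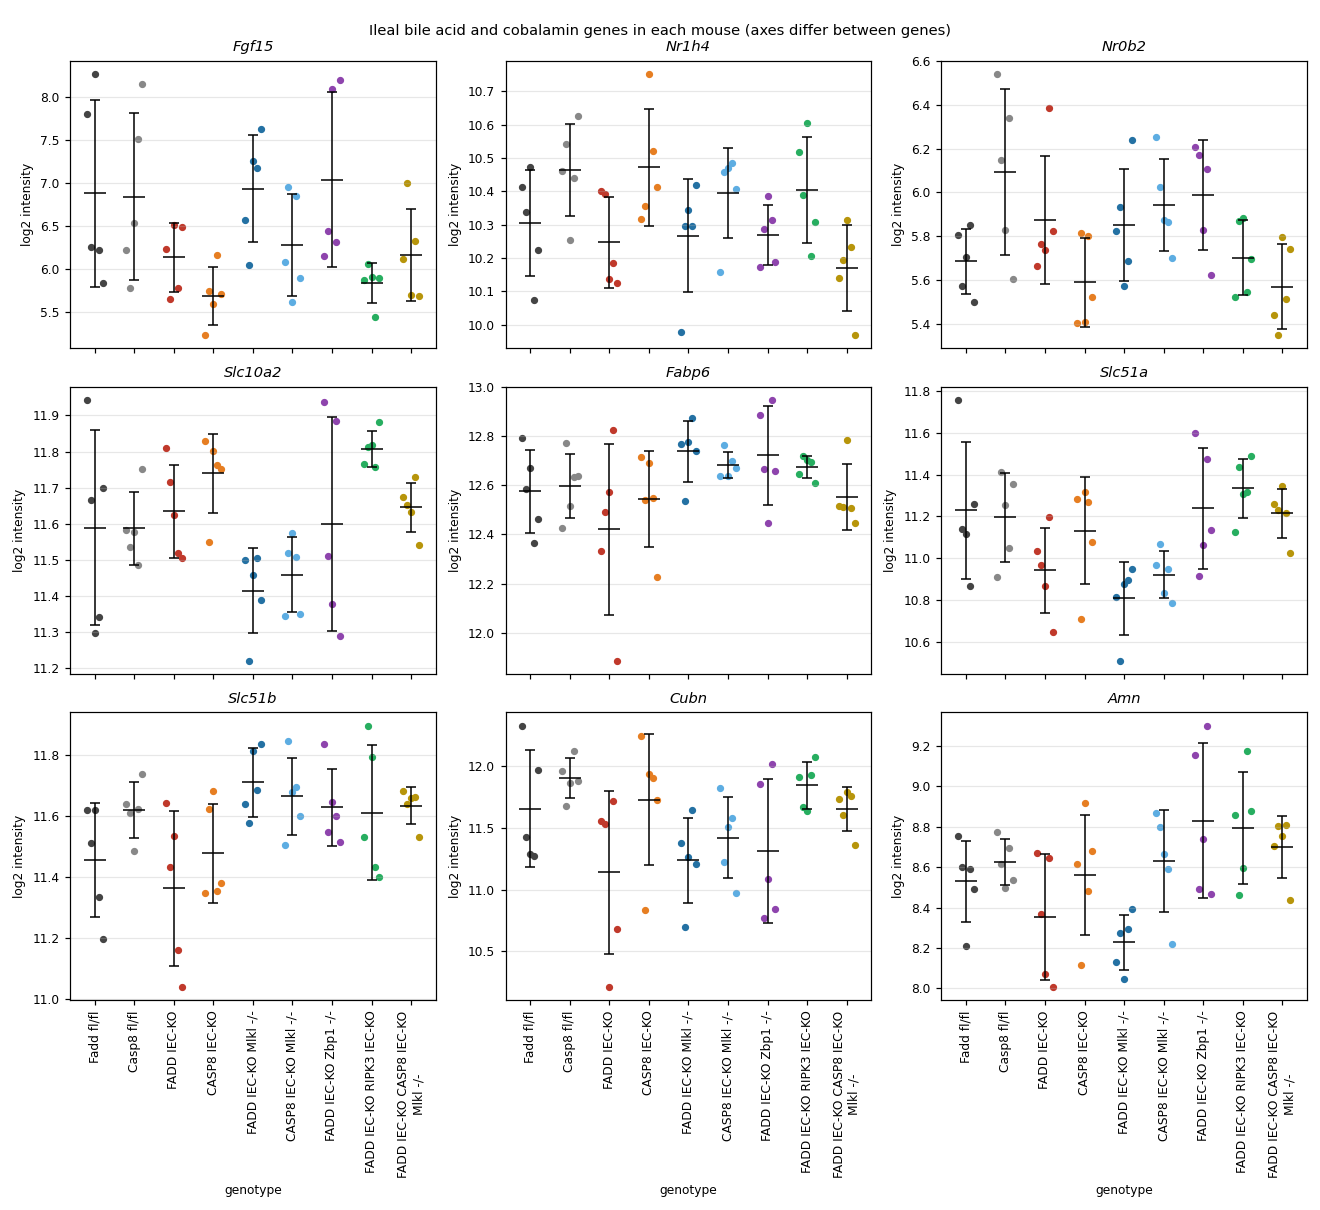
Log2 intensity of each gene (y axis, range differs between panels) in each mouse (points) by genotype (x axis), with the mean and SD of 5 mice in black. Fgf15 spreads over 5.23 to 8.27 across mice, with high and low mice inside the same genotype, while Slc10a2 stays within 11.22 to 11.94 and Nr1h4 within 9.97 to 10.75.

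In 8 main comparisons of genotypes, 2 of 72 gene differences passed limma's test at an adjusted p under 0.05, Nr0b2 after caspase-8 loss and Amn in the triple mutants. At an unadjusted p under 0.05 there were 25 of 72, where 10.5% to 21.6% of all genes passed per comparison. For 63 of the 72 the 95% interval of the difference lay within 2-fold in either direction. Fgf15 stayed within that bound in 1 of its 8 comparisons and Cubn in 6, and each of the other genes in all 8. So for the 7 other genes changes of 2-fold or more lay outside the intervals of the fit, whereas for Fgf15 they did not.

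Loss of FADD, compared with Fadd fl/fl, changed none of the 9 genes by limma's test, which called 3.73% of all genes, and the count was also 0 without FADD IEC-KO replicate 1. At an unadjusted p under 0.05 there were 2 genes, Slc51a and Cubn, and 18.4% of all genes. Loss of caspase-8, compared with Casp8 fl/fl, changed 1 gene, Nr0b2, against 4.17% of all genes. With MLKL also absent, 0 of 9 genes were called against FADD IEC-KO (1.61% of all genes) and 0 of 9 against CASP8 IEC-KO (2.78%). At an unadjusted p under 0.05 these were 3 members against 10.5% of all genes and 2 members against 12.7%. FADD IEC-KO Zbp1 -/- mice and mice with both FADD IEC-KO and RIPK3 IEC-KO each had 0 of 9 called against FADD IEC-KO, with backgrounds of 3.32% and 1.55%. At an unadjusted p under 0.05 there were 5 members in each, against 17.8% and 14.2% of all genes. These 4 tests against single deletions use the same FADD IEC-KO or CASP8 IEC-KO mice as the tests against controls. The triple mutants differed from FADD IEC-KO Mlkl -/- in 1 gene, Amn (7.86% of all genes), and from CASP8 IEC-KO Mlkl -/- in 0 genes (3.1%). In the latter comparison 3 members had an unadjusted p under 0.05, against 15.6% of all genes. The floxed controls differed from each other in 0 of the 9 genes (0.00513%). Between them 1 member had an unadjusted p under 0.05, against 8.38% of all genes. Against its own control, CASP8 IEC-KO Mlkl -/- had 0 of 9 called (1.09%), FADD IEC-KO Zbp1 -/- 0 (11.9%) and the triple mutants, set against both controls, 0 (3.69%). At an unadjusted p under 0.05 these had 1, 0 and 2 members, against 11.8%, 25.2% and 17.8% of all genes. The effect of MLKL loss differed between the FADD and caspase-8 backgrounds for 0 of 9 genes (0.0564%). Here 0 members had an unadjusted p under 0.05, against 6.30% of all genes.

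**Figure D2:**
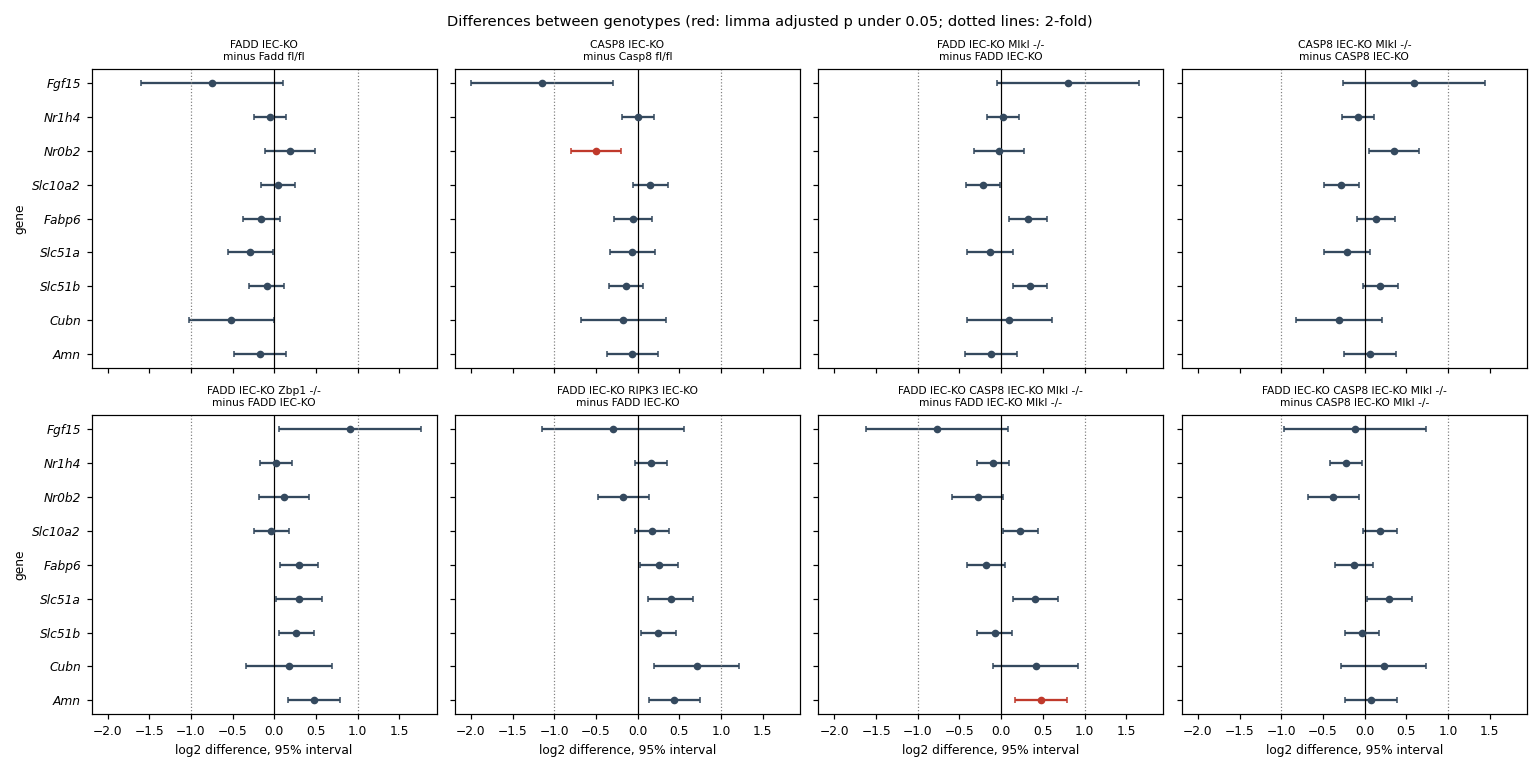
Difference in log2 intensity (x axis, first genotype minus second) with its 95% interval for each gene (y axis) in the 8 main comparisons, with red for limma adjusted p under 0.05 and dotted lines at 2-fold. Nr0b2 in CASP8 IEC-KO and Amn in the triple mutants against FADD IEC-KO Mlkl -/- are red, and the intervals of Fgf15 are the widest in each panel.

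Fgf15, the hormone, varied most between mice of 1 genotype. Its SD within groups was 0.71, larger than that of 99.6% of all genes, whereas the median of the 9 genes was 0.22 and that of all genes 0.21. Fadd fl/fl mice had 5.84, 6.22, 6.25, 7.81 and 8.27. Casp8 fl/fl mice had 5.77, 6.22, 6.53, 7.51 and 8.15, and FADD IEC-KO Zbp1 -/- mice 6.15, 6.31, 6.44, 8.10 and 8.20. In each of these 3 groups 2 mice stood at 7.51 or above and 3 at 6.53 or below. FADD IEC-KO Mlkl -/- mice had 6.05, 6.57, 7.18, 7.25 and 7.62. FADD IEC-KO mice had 5.65, 5.78, 6.24, 6.49 and 6.51, CASP8 IEC-KO mice 5.23, 5.59, 5.70, 5.74 and 6.16, and FADD IEC-KO RIPK3 IEC-KO mice 5.44, 5.87, 5.90, 5.91 and 6.05. No mouse of these 3 groups reached the 2 highest mice of any group named before them. The groups were put in this order after their values were seen, and Fgf15 passed in 0 of 36 pairs of genotypes. CASP8 IEC-KO Mlkl -/- mice had 5.62, 5.90, 6.08, 6.84 and 6.96 and triple mutants 5.68, 5.69, 6.12, 6.32 and 6.99.

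Fgf15 in CASP8 IEC-KO was 0.450-fold the Casp8 fl/fl level, with a 95% interval of 0.250 to 0.812 and a log2 difference of -1.15 ± 0.42 (SE), and did not pass (limma adjusted p = 0.110). In FADD IEC-KO it was 0.597-fold the Fadd fl/fl level, with an interval of 0.331 to 1.08 (limma adjusted p = 0.356). In FADD IEC-KO RIPK3 IEC-KO the log2 difference from Fadd fl/fl was -1.04 ± 0.42 (limma adjusted p = 0.227), in a comparison that called 1.23% of all genes. In each of these comparisons the groups overlapped. Fgf15 passed the F test but in none of the 36 pairs of genotypes, and it passed the F test in 6 of 12 alternative fits (adjusted p 0.0136 to 0.0979). Among these 6, the mean of probes only repeats the full fit. The pass under the filter on dim genes (F test adjusted p = 0.0272) is no support. The mean of Fgf15, 6.42, lay below the filter's threshold of 6.49, and only its higher group means, up to 7.04, kept it in. Time since feeding and hour of sampling were not given in the sources used here.

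Nr1h4, the gene of the bile acid receptor itself, stayed between 10.17 ± 0.13 in the triple mutants and 10.47 ± 0.17 in CASP8 IEC-KO, and passed in 0 of 36 pairs. Its main differences ran from -0.23 ± 0.10, between triple mutants and CASP8 IEC-KO Mlkl -/- (limma adjusted p = 0.220), to 0.16 ± 0.10, between FADD IEC-KO RIPK3 IEC-KO and FADD IEC-KO (limma adjusted p = 0.473). Nr0b2, which encodes the corepressor SHP, was 5.61, 5.83, 6.15, 6.34 and 6.54 in Casp8 fl/fl mice and 5.40, 5.41, 5.52, 5.80 and 5.81 in CASP8 IEC-KO mice. Of the 5 control mice 4 stood above every CASP8 IEC-KO mouse, 1 of them by a small margin (5.83 against 5.81), and the lowest overlapped with them. The level fell by 0.50 on the log2 scale (SE 0.15), to 0.706-fold with an interval of 0.572 to 0.870 (limma adjusted p = 0.0451).

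That call was near the threshold. The filter on dim genes kept genes whose mean or highest group mean lay above 6.49. It removed Nr0b2, with a mean of 5.81 and a highest group mean of 6.09. The call was kept in 7 of 12 other alternative fits (adjusted p 0.0381 to 0.185), of which the mean of probes only repeats the full fit. It was kept in 3 of the 10 fits without 1 mouse of the groups compared, those without Casp8 fl/fl replicate 3 or 5 or CASP8 IEC-KO replicate 4. The sample titles carry numbers of no stated meaning. Among mice with title numbers under 100 the difference was -0.67 (3 against 4 mice), and with numbers of 200 and over 0.06 (2 against 1). Nr0b2 in FADD IEC-KO differed from Fadd fl/fl by 0.19 ± 0.15 (limma adjusted p = 0.552). The interaction, the FADD effect minus the caspase-8 effect, was 0.69 ± 0.21 with an unadjusted p of 0.0022 and a limma adjusted p of 0.410. No gene passed this interaction (0% called, 1271 genes at an unadjusted p under 0.05). Nr0b2 was also 0.41 ± 0.15 higher in Casp8 fl/fl than in Fadd fl/fl, without passing (limma adjusted p = 0.385). In CASP8 IEC-KO Mlkl -/- it was 0.35 ± 0.15 above CASP8 IEC-KO (limma adjusted p = 0.271) and 0.15 ± 0.15 below Casp8 fl/fl (limma adjusted p = 0.755).

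Slc10a2, the apical uptake transporter, was lowest in both groups with a single epithelial deletion and no MLKL. FADD IEC-KO Mlkl -/- mice had 11.22, 11.39, 11.46, 11.50 and 11.50, with 11.35, 11.35, 11.51, 11.52 and 11.58 in CASP8 IEC-KO Mlkl -/- mice. In FADD IEC-KO RIPK3 IEC-KO mice it was 11.76, 11.77, 11.81, 11.82 and 11.88, above every mouse of both. The differences from FADD IEC-KO RIPK3 IEC-KO were -0.39 ± 0.10 (limma adjusted p = 0.0185, 4.96% of all genes called) and -0.35 ± 0.10 (limma adjusted p = 0.0487, 3.35%). These 2 pairs were read among all 36 pairs of genotypes, with adjustment over genes but not over pairs. The share of all genes without overlap in them was not counted. Against the single deletions, the loss of MLKL went with -0.22 ± 0.10 in the FADD background (limma adjusted p = 0.430) and -0.28 ± 0.10 in the caspase-8 background (limma adjusted p = 0.168), neither of which passed. The brush border list mean, which also did not overlap, was 10.98 to 11.42 in FADD IEC-KO RIPK3 IEC-KO, 10.36 to 10.69 in FADD IEC-KO Mlkl -/- and 10.77 to 10.98 in CASP8 IEC-KO Mlkl -/- (the first and last ranges meet only after rounding). Slc10a2 in CASP8 IEC-KO was at 11.74 ± 0.11 and in Casp8 fl/fl at 11.59 ± 0.10.

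Fabp6, the cytosolic carrier, had the highest F test adjusted p of the 9 genes and passed in 0 of 36 pairs. Its lowest group was FADD IEC-KO, with 11.89, 12.33, 12.49, 12.57 and 12.82, and its highest FADD IEC-KO Mlkl -/-, with 12.53, 12.74, 12.77, 12.78 and 12.87. The groups overlapped, and the difference was 0.32 ± 0.11 (limma adjusted p = 0.198). Without FADD IEC-KO replicate 4, the mouse at 12.82, it was 0.42 and passed (limma adjusted p = 0.0403), and the difference of FADD IEC-KO Zbp1 -/- from FADD IEC-KO was 0.40 and passed (0.0274).

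Slc51b, the smaller subunit of the export dimer, was also lowest in FADD IEC-KO (11.04, 11.16, 11.43, 11.53 and 11.64) and highest in FADD IEC-KO Mlkl -/- (11.58, 11.64, 11.69, 11.81 and 11.83). Only the FADD IEC-KO mouse at 11.64 reached the range of the other group. The difference was 0.35 ± 0.10 (limma adjusted p = 0.0809). Without FADD IEC-KO replicate 1, the mouse at 11.64 and the one whose Fadd intensity was near the undeleted level, it was 0.42 and passed (limma adjusted p = 0.0235).

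Slc51a, the larger subunit, was lowest in FADD IEC-KO Mlkl -/-, where the mice had 10.51, 10.81, 10.87, 10.90 and 10.95. Fadd fl/fl mice had 10.87, 11.12, 11.14, 11.26 and 11.76, and only the lowest of them lay in the range of the double mutants. The level fell by 0.42 on the log2 scale (SE 0.13), to 0.747-fold with an interval of 0.619 to 0.901 (limma adjusted p = 0.0363), and it was the 1 gene of 9 called in a comparison that called 10.5% of all genes. FADD IEC-KO RIPK3 IEC-KO mice had 11.13, 11.31, 11.32, 11.44 and 11.49, all above the double mutants, with a difference of -0.53 ± 0.13 (limma adjusted p = 0.0146, 4.96% of all genes called). This pair too was read among all 36, without adjustment over pairs, and the share of all genes without overlap in it was not counted. The Slc51b difference from Fadd fl/fl in the same mice was 0.25 ± 0.10 and did not pass (limma adjusted p = 0.114).

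Of 13 brush border genes 3 fell and 0 rose in FADD IEC-KO Mlkl -/- against Fadd fl/fl, and the mean of the list was 10.58 ± 0.13 in these double mutants (10.36 to 10.69) and 10.99 ± 0.32 in Fadd fl/fl (10.67 to 11.46). Of 8 Paneth cell genes 7 fell and 0 rose, of 8 smooth muscle genes 4 fell and 0 rose, and of 8 neutrophil and inflammation genes 2 rose and 0 fell. With the brush border mean as a covariate, a fit added after the data were seen, the difference was -0.12 (limma adjusted p = 0.525), and with the mean of 9 proximal small intestine markers, a planned covariate, it was -0.01 (limma adjusted p = 0.983). The proximal mean was 5.91 to 6.23 in the double mutants and 6.30 to 6.67 in Fadd fl/fl. So the groups barely overlapped in the brush border mean and not at all in the proximal mean. Both fits extend relations found within genotypes and cannot show whether Slc51a differs at equal marker levels. The Slc51a call was kept in 8 of 13 alternative fits (adjusted p 0.000827 to 0.983), of which the mean of probes only repeats the full fit. It was kept in 5 of 10 fits without 1 mouse. It was lost without Fadd fl/fl replicate 1 (-0.29, adjusted p = 0.173) or 5, or without FADD IEC-KO Mlkl -/- replicate 1, 2 or 3. Among mice with title numbers under 100 the difference was -0.64 (5 against 2 mice).

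Cubn, the cobalamin receptor, was the gene with the widest spread between mice after Fgf15, with an SD within groups of 0.42, larger than that of 98.2% of all genes. FADD IEC-KO mice had 10.21, 10.68, 11.54, 11.56 and 11.72, so that 2 mice stood about 1 log2 unit below the other 3. FADD IEC-KO Zbp1 -/- mice had 10.77, 10.85, 11.09, 11.86 and 12.02, and 1 CASP8 IEC-KO mouse had 10.84 beside 4 at 11.73 to 12.24. Casp8 fl/fl mice lay between 11.68 and 12.13 and FADD IEC-KO RIPK3 IEC-KO mice between 11.63 and 12.08. FADD IEC-KO differed from Fadd fl/fl by -0.52 ± 0.25 (limma adjusted p = 0.263), and FADD IEC-KO RIPK3 IEC-KO from FADD IEC-KO by 0.70 ± 0.25 (limma adjusted p = 0.159), a ratio of 1.63 with an interval of 1.14 to 2.32. Cubn passed in 0 of 36 pairs.

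Amn, the membrane anchor of cubilin, was lowest in FADD IEC-KO Mlkl -/-, with 8.05, 8.13, 8.28, 8.29 and 8.39. Triple mutants had 8.44, 8.71, 8.75, 8.80 and 8.81, all above them. The level rose by 0.47 ± 0.15, or 1.39-fold with an interval of 1.12 to 1.72 (limma adjusted p = 0.0482). Amn, Slc51a and Slc10a2 were the 3 of 9 genes whose mice did not overlap between these groups, against 10.9% of all genes. Slc51a differed by 0.41 ± 0.13 (limma adjusted p = 0.0520) and Slc10a2 by 0.23 ± 0.10 (limma adjusted p = 0.176), and neither passed. FADD IEC-KO Zbp1 -/- mice had Amn values of 8.47, 8.49, 8.74, 9.15 and 9.30, and FADD IEC-KO RIPK3 IEC-KO mice 8.46, 8.59, 8.86, 8.88 and 9.18. Both groups lay above FADD IEC-KO Mlkl -/- without overlap, but the share of all genes without overlap in these 2 pairs was not counted. Differences for the double mutants without MLKL were -0.60 ± 0.15 (limma adjusted p = 0.0167, 4.12% of all genes called) and -0.57 ± 0.15 (limma adjusted p = 0.0236, 4.96%). Both pairs were read among all 36 pairs of genotypes, with adjustment over genes but not over pairs. Against FADD IEC-KO, FADD IEC-KO Zbp1 -/- mice differed in Amn by 0.48 ± 0.15 (limma adjusted p = 0.0744), and without FADD IEC-KO replicate 1 by 0.56, which passed (0.0461).

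Other differences between these groups were measured beside the Amn call. All triple mutants had title numbers of 200 and over and all FADD IEC-KO Mlkl -/- mice numbers under 100, so no value within a number series could be had. With the number series as a covariate, whose effect then rests on the other 7 groups, the difference was 0.55 and did not pass (limma adjusted p = 0.0792). Of 13 brush border genes 8 rose and 0 fell, of 8 smooth muscle genes 7 rose and 0 fell, and of 8 Paneth cell genes 6 rose and 0 fell. The mean of the brush border list was 11.05 to 11.36 in the triple mutants and 10.36 to 10.69 in FADD IEC-KO Mlkl -/-. With the brush border mean as a covariate the Amn difference was -0.06 (limma adjusted p = 0.849), and that of Cubn changed from 0.41 ± 0.25 to -0.64 (limma adjusted p = 0.0117). These groups did not overlap in the brush border mean, so the adjusted values extend relations found within genotypes beyond shared values. They cannot show whether Amn or Cubn differs at an equal brush border level. Amn was called in 7 of 13 alternative fits (adjusted p 0.00753 to 0.921), of which the mean of probes only repeats the full fit. It was called in 1 of 10 fits without 1 mouse, the one without triple mutant replicate 5 (0.54, adjusted p = 0.0311). In the other 9 the difference was 0.43 to 0.51 and the adjusted p 0.0517 to 0.115.

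All 5 FADD IEC-KO RIPK3 IEC-KO mice had a high mean of the Y-linked genes Eif2s3y, Kdm5d and Uty (7.74 to 8.12), while every other group held mice with high and low values. Their brush border list mean also lay above that of FADD IEC-KO Mlkl -/- without overlap. The part of either in the 4 calls of Slc10a2, Slc51a and Amn that involve FADD IEC-KO RIPK3 IEC-KO was not tested.

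Genes that act beside the 9 were called in all main comparisons except FADD IEC-KO Zbp1 -/- versus FADD IEC-KO, mostly 1 or a few per list. Of 17 measured genes of bile acid handling, 4 rose and 0 fell in the triple mutants against FADD IEC-KO Mlkl -/-, with a median of 0.28 against 0.01 for all genes. They included Cyp27a1, a sterol hydroxylase (1.03 ± 0.29, limma adjusted p = 0.0196), Npc1l1, the cholesterol uptake transporter (0.81 ± 0.13, 9.27e-05), and Abcg8, a subunit of the sterol exporter (0.49 ± 0.14, 0.0252). In FADD IEC-KO Mlkl -/- against Fadd fl/fl 4 of the 17 fell and 0 rose, among them Cyp3a11, a cytochrome that hydroxylates bile acids (-1.81 ± 0.47, 0.0088), Cyp27a1 (-1.57 ± 0.29) and Npc1l1 (-0.98 ± 0.13). These comparisons, which called 7.86% and 10.5% of all genes, share the FADD IEC-KO Mlkl -/- mice. After caspase-8 loss 2 of 17 rose, Fgfr4, the hepatic type of FGF15 receptor (0.58 ± 0.12, limma adjusted p = 0.0046), and Abcc4, a basolateral exporter (0.48 ± 0.15, 0.0490). Abcg8 was the 1 gene of the list that fell after FADD loss (-0.50 ± 0.14, 0.0390), and 0 rose. Against the single deletions 1 of 17 fell in each of 3 comparisons, Npc1l1 in FADD IEC-KO Mlkl -/- (-0.56 ± 0.13, 0.0119), Fgfr4 in CASP8 IEC-KO Mlkl -/- (-0.61 ± 0.12, 0.0016) and Abcc4 in the RIPK3 double mutants (-0.64 ± 0.15, 0.0172). The triple mutants had 0 of 17 called against CASP8 IEC-KO Mlkl -/- and against both controls. Of all genes, 4.17% were called after caspase-8 loss and 3.73% after FADD loss. The 3 comparisons against single deletions called 1.61%, 2.78% and 1.55%, in the order given.

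Of 20 measured regulators of ileal bile acid genes, 4 rose and 0 fell in the triple mutants against FADD IEC-KO Mlkl -/-, where 7.86% of all genes were called. Jun, an immediate early transcription factor, rose by 0.61 ± 0.10 (limma adjusted p = 1.69e-04), Nr1h3, a receptor for oxysterols, by 0.51 ± 0.15 (0.0240) and Rxra, the dimer partner of FXR, by 0.43 ± 0.09 (0.0024). In the same FADD IEC-KO Mlkl -/- mice 3 fell and 1 rose against Fadd fl/fl, where 10.5% of all genes were called. Jun (-0.60 ± 0.10) and Vdr (-0.35 ± 0.12) were among those that fell, and Gata4 rose (0.45 ± 0.10). The triple mutants had 0 of 20 called against both controls. Against CASP8 IEC-KO Mlkl -/-, where 3.1% of all genes were called, 3 rose and 0 fell. These were Fos (1.14 ± 0.23), Hnf4a (0.37 ± 0.08) and Srebf2 (0.30 ± 0.07). In the caspase-8 comparison 0 of the 20 passed, and after FADD loss Nr3c1, the glucocorticoid receptor, fell by 0.37 on the log2 scale (SE 0.11, limma adjusted p = 0.0405). Against the single deletions, Jun fell in FADD IEC-KO Mlkl -/- (-0.44 ± 0.10, 0.0120), Fos fell in CASP8 IEC-KO Mlkl -/- (-1.08 ± 0.23, 0.0028) and Nr1h3 rose in FADD IEC-KO RIPK3 IEC-KO (0.63 ± 0.15, 0.0196).

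Of 16 measured genes that carry or process cobalamin, 2 rose and 2 fell after FADD loss, where 3.73% of all genes were called. Tcn2, the plasma carrier transcobalamin, fell by 0.66 on the log2 scale (SE 0.13, limma adjusted p = 0.0026). Lrp1, an endocytic receptor, fell by 0.46 (SE 0.11, limma adjusted p = 0.0152). Abcc1, a basolateral exporter of cobalamin, rose by 0.61 ± 0.16 (limma adjusted p = 0.0249). Tcn2 was also lower in FADD IEC-KO Mlkl -/- than in Fadd fl/fl (-0.81 ± 0.13, limma adjusted p = 7.50e-05) and 0.70 ± 0.13 higher in the triple mutants than in FADD IEC-KO Mlkl -/- (limma adjusted p = 8.68e-04). Cubn and Amn did not pass in FADD IEC-KO against Fadd fl/fl, and the caspase-8 comparison called 0 of the 16. After FADD loss 2 of 5 macrophage genes and 1 of 8 smooth muscle genes also fell, and 0 of either list rose. The part of these cells in the falls of Tcn2 and Lrp1 was not tested. Abcc1 fell in FADD IEC-KO RIPK3 IEC-KO against FADD IEC-KO (limma log2 difference -0.67 ± 0.16, adjusted p = 0.0241).

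Within genotypes, several of the genes rose and fell together from mouse to mouse. Each mouse's deviation from its genotype mean was correlated over 45 mice, with p-values from 100000 permutations within genotypes, adjusted over 36 pairs. Of these pairs 7 passed by both Pearson's r and Spearman's rho, and 27 had a positive r. Cubn and Amn, the 2 parts of the cobalamin receptor, had r = 0.74 and rho = 0.67 (adjusted permutation p = 2.40e-04 and 0.0012). Slc51a, the exporter subunit, went with Cubn (r = 0.72, rho = 0.68), with Slc10a2 (r = 0.71, rho = 0.61), with Fabp6 (r = 0.65, rho = 0.64) and with Amn (r = 0.53, rho = 0.48). Slc10a2 and Cubn had r = 0.67 and rho = 0.66. Without the 2 mice farthest from the median, r of these 6 pairs was 0.46 to 0.70.

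The other pair that passed was Slc51b with Nr1h4 (r = 0.57, rho = 0.59, adjusted permutation p = 0.0022 and 0.0019). The 2 subunits of the export dimer, Slc51a and Slc51b, had r = 0.27 and did not pass. All 7 pairs had a positive r both among the 28 mice with title numbers under 100 and among the 17 with numbers of 200 and over. Fgf15 passed with none of the other 8 genes, and its r with the FXR target genes Fabp6, Slc51a, Slc51b and Nr0b2 was -0.05, 0.08, 0.32 and -0.25. Nr0b2 also passed with none.

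**Figure D3:**
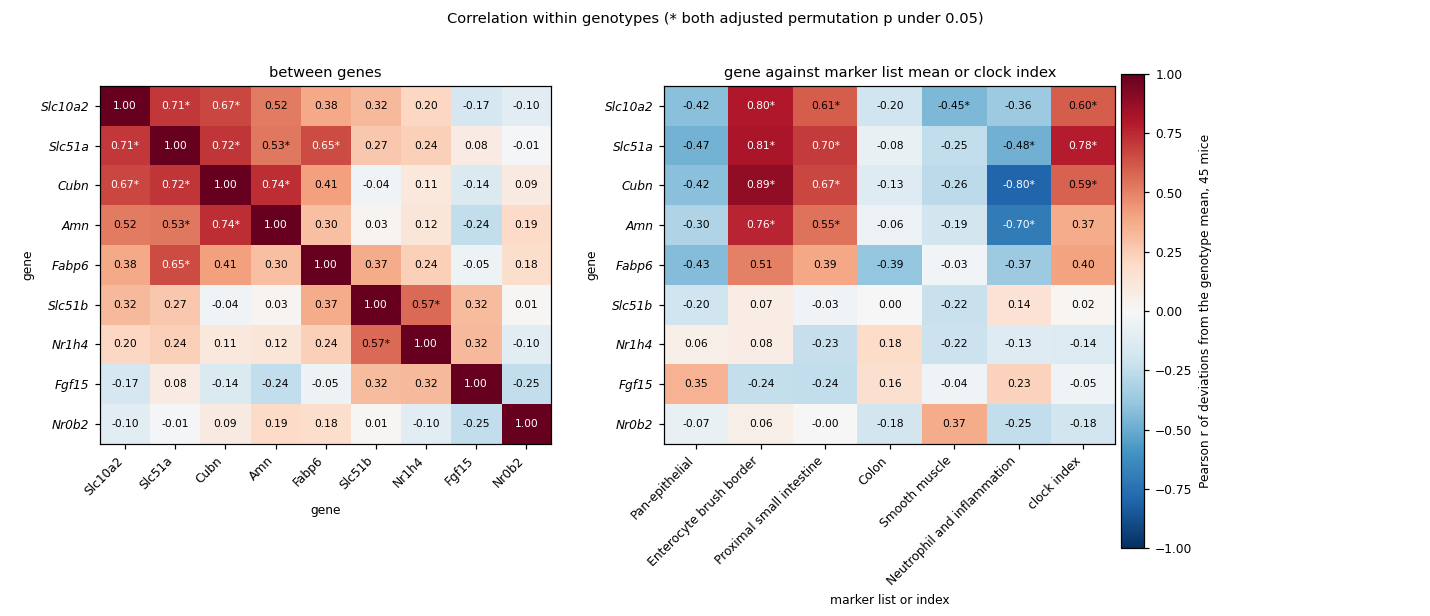
Pearson r, over 45 mice, of deviations from the genotype mean between pairs of genes (left) and between each gene and the mean of a marker list or the clock index (right), with colour for r and a star where both adjusted permutation p were under 0.05. Slc10a2, Slc51a, Cubn and Amn form a block of positive r, and r with the brush border list is 0.76 to 0.89 for these 4 and -0.24 for Fgf15.

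The same 4 genes followed enterocyte markers. Against the mean of 13 brush border genes, such as those of sucrase and aminopeptidase N, r was 0.89 for Cubn, 0.81 for Slc51a, 0.80 for Slc10a2 and 0.76 for Amn, and these were among 15 of 63 pairs of gene and list that passed by both measures. The smallest p that these permutations can give, 1.00e-05, was reached by each of the 4 with Pearson's r. Against the mean of 8 neutrophil and inflammation genes r was -0.80 for Cubn, -0.70 for Amn and -0.48 for Slc51a. Against 9 markers of the proximal small intestine it was 0.70 for Slc51a, 0.67 for Cubn, 0.61 for Slc10a2 and 0.55 for Amn. Slc10a2 was also negatively related to smooth muscle genes (r = -0.45). Fabp6, Slc51b, Nr1h4, Fgf15 and Nr0b2 passed with no list by both measures.

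A clock index, the mean of Dbp, Nr1d1, Nr1d2, Per3, Tef and Ciart minus the mean of Arntl, Npas2 and Clock, was used because the daily clock sets these genes in antiphase. It had r = 0.78 with Slc51a, 0.60 with Slc10a2 and 0.59 with Cubn within genotypes. For Slc51a, r was 0.83 among mice with numbers under 100 and 0.63 among the others. The index lay between -3.26 and -2.55 in CASP8 IEC-KO Mlkl -/- mice while FADD IEC-KO RIPK3 IEC-KO mice had -0.73 to 0.40. These are the groups compared for Slc10a2 above. In Fadd fl/fl mice it ran from -2.50 to 0.65. CASP8 IEC-KO mice had -2.39 to 0.72 and triple mutants -1.11 to 0.22, also above all CASP8 IEC-KO Mlkl -/- mice. Both groups were set against CASP8 IEC-KO Mlkl -/- in main comparisons. The part of the clock index in the Slc10a2 difference above was not tested, nor its part in the Fos differences of those main comparisons.

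**Figure D4:**
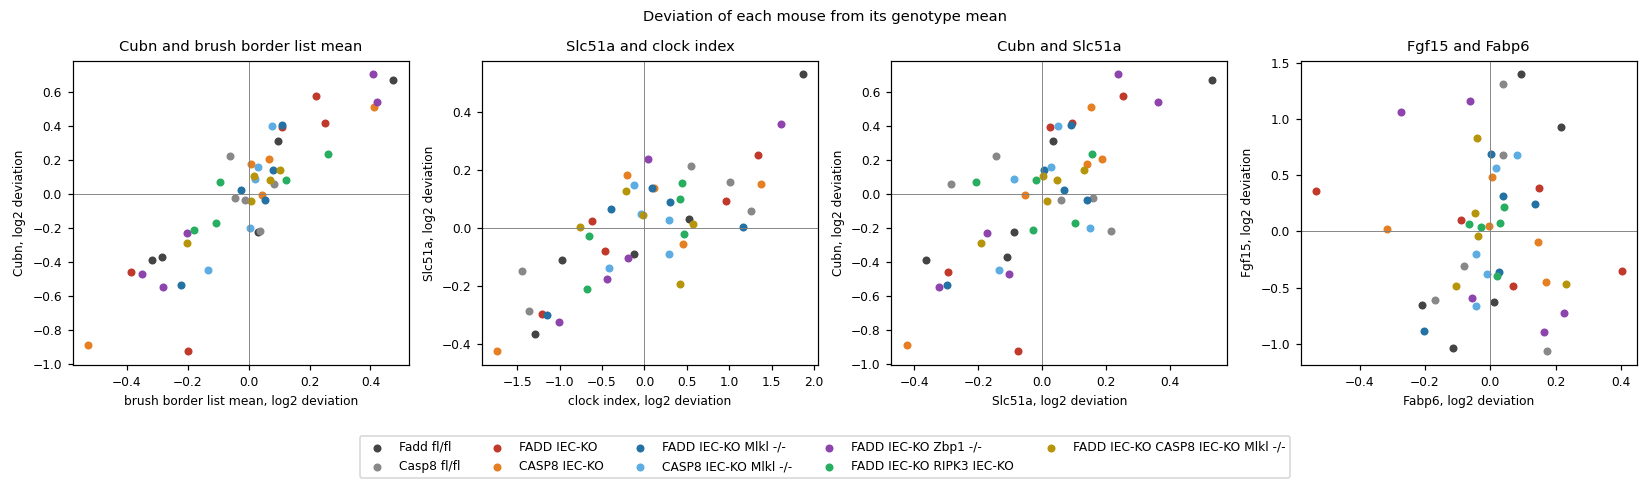
Deviation of each of 45 mice from its genotype mean in log2 units, coloured by genotype, for Cubn against the brush border list mean (r = 0.89), Slc51a against the clock index (r = 0.78), Cubn against Slc51a (r = 0.72) and Fgf15 against Fabp6 (r = -0.05). Taken over all mice, points lie along a rising line in the first 3 panels and scatter without such a line in the last. Within single genotypes, r was positive in 8 genotypes, but not in all, for each of the first 3 panels.

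The genes whose values over all 45 arrays were most like those of each gene are given as a description. Cubn was most like Fmo5 (r = 0.91), Dpep1 (0.90) and Slc47a1 (0.88), a flavin monooxygenase, a brush border dipeptidase and a cation exporter. Slc10a2 was most like Fam118a (r = 0.83) and the amino acid transporter genes Slc6a19 and Slc7a15 (both 0.82). Slc51a was most like Slc9a3r1 (0.85), Plcd1 (0.84) and Gnpda1 (0.82), and Amn like Cndp2, Pbld1 and Pepd (all 0.80). Slc51b was most like Jarid2 (0.75), Nmi (0.71) and H2-Q1 (0.69). For the other genes the highest r was lower, at 0.67 for Nr1h4 with Hps5, 0.62 for Nr0b2 with Dlx1, 0.61 for Fabp6 with Anxa13 and 0.59 for Fgf15 with Pilrb1.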

How the data were processed

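The authors deposited log2 intensities. The submitters' processing notes name Affymetrix Expression Console and Transcriptome Analysis Console. Versions and the summarization method were not given in the sources used here. RNA targets were made with the WT PLUS kit per the labels. Of 22142 probes, 19527 had 1 symbol. Where a gene had several probes, that of highest mean represented it, which left 19494 genes. Array medians were 6.36 to 6.44, and no 2 arrays were identical. The number of arrays limits the precision.

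Groups followed the sample titles. For the triple mutants the genotype field did not name Fadd. All 45 arrays entered 1 fit of group means with limma 3.58.1 in R 4.3.3 (36 residual degrees of freedom), tested two-sided on simulated data first, with Benjamini-Hochberg adjustment over all genes. P-values measure only the spread between these mice. Named genes were the 9 genes, up to 3 called genes of a list with the largest change per comparison, and the 3 genes most like each. The genes and lists were chosen with earlier results of these data known. Alternatives were 13 other fits and fits without each mouse. The fit on the mean of a gene's probes left the values of the 9 genes as they were, since each had 1 probe. Calls kept in that fit therefore say nothing of stability. Title numbers, under 100 or 200 and over, have no stated meaning and were taken as a possible batch. The sex index was the mean of the Y-linked genes Eif2s3y, Kdm5d and Uty only, since Xist and Ddx3y had no probe with a symbol here.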

Additional observations from a re-analysis of the deposited data

Results flagged for a closer look

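In 6 of 81 sets of a gene and a genotype, 1 of the 5 mice stood apart by Dixon's ratio of gap to range (critical value 0.71). Chance alone gives about this share of such sets, near 1 in 20. Slc10a2 was 11.55 in CASP8 IEC-KO replicate 2, with the next mouse at 11.75. Fabp6 was 12.78 in triple mutant replicate 3, with the next at 12.51. Nr1h4 was 9.98 in FADD IEC-KO Mlkl -/- replicate 1 (next 10.29) and 10.16 in CASP8 IEC-KO Mlkl -/- replicate 1 (next 10.41). Nr0b2 was 6.39 in FADD IEC-KO replicate 4, with the next at 5.82. Amn was 8.44 in triple mutant replicate 5, with the next at 8.71, and without that mouse the Amn difference from FADD IEC-KO Mlkl -/- was 0.54 (limma adjusted p = 0.0311).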

How the results depend on the processing

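For CASP8 IEC-KO versus Casp8 fl/fl the count of 1 became 0 with the number series, the pan-epithelial mean or the proximal mean as a covariate, after quantile normalization, in a fit of only these groups, and under the filter on dim genes, which removed Nr0b2. For FADD IEC-KO Mlkl -/- versus FADD IEC-KO 0 became 1 with the filter on dim genes, with trend and robust eBayes, and with the sex index, proximal mean or brush border mean. For CASP8 IEC-KO Mlkl -/- versus CASP8 IEC-KO 0 became 1 with array weights and with the pan-epithelial or brush border mean (Slc10a2). For FADD IEC-KO Zbp1 -/- versus FADD IEC-KO 0 became 1 with quantile normalization or the dim filter, and 2 with the clock index, proximal or brush border mean. For the triple mutants versus FADD IEC-KO Mlkl -/- 1 became 0 with the number series, quantile normalization, median centring, the clock index or the proximal mean. It became 2 with the dim filter, trend and robust eBayes or a fit of only these groups, and 3 with array weights or the pan-epithelial mean. With the brush border mean it was also 2, but of other genes. These were Fabp6 (-0.44, limma adjusted p = 0.0343) and Cubn with its sign turned, while Amn was no longer called. The F test, with 4 genes, called 2 with the clock index and 1 with the proximal mean, but 5 with the number series or brush border mean and 6 with the dim filter, array weights or trend and robust eBayes. Fgf15 was among the 6 with the dim filter, which kept it only through its higher group means. The cause of these changes was not tested. The counts for FADD IEC-KO versus Fadd fl/fl, FADD IEC-KO RIPK3 IEC-KO versus FADD IEC-KO and the triple mutants versus CASP8 IEC-KO Mlkl -/- were 0 in each of these fits.

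The brush border mean was chosen as a covariate after the data were seen. With it the difference of the triple mutants from FADD IEC-KO Mlkl -/- turned to -0.64 for Cubn (limma adjusted p = 0.0117) and -0.0637 for Amn. These groups did not overlap in that mean, so the turned signs rest on extrapolation and do not establish a reversed effect. Of 903 values of uncalled differences under the alternatives, 49 had the other sign and 24 passed with the sign of the full fit, besides the Cubn value above.

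Without each mouse in turn, the counts were 0 to 1 for CASP8 IEC-KO versus Casp8 fl/fl, 0 to 1 for FADD IEC-KO Mlkl -/- versus FADD IEC-KO, 0 to 2 for FADD IEC-KO Zbp1 -/- versus FADD IEC-KO, 0 to 2 for the triple mutants versus FADD IEC-KO Mlkl -/-, and 0 for the other main comparisons. The F test then called 2 to 5 genes. Amn passed in FADD IEC-KO Zbp1 -/- versus FADD IEC-KO without FADD IEC-KO replicate 1 (0.56, adjusted p = 0.0461), FADD IEC-KO replicate 4 (0.55, 0.0370) or FADD IEC-KO Zbp1 -/- replicate 2 (0.56, 0.0376). No paired analysis was possible because the titles share no replicate numbers across groups. With 5 mice per group, the intervals of Fgf15 reached beyond 2-fold in 7 of 8 main comparisons, so changes of that size lay within them.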
